A study of Mus musculus with 5 samples.

Results

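The LMO and LDB cofactor genes comprise 6 genes, Lmo1, Lmo2, Lmo3, Lmo4, Ldb1 and Ldb2, of 27919 rows with a gene symbol in a table of counts per gene. They were chosen by symbol, as the LIM-only proteins and the LIM-domain binding proteins, and all 6 had enough counts to be tested. The samples are 3 EedcKO and 2 wild type mouse forebrains at stage E12.5, read out by sequencing of polyadenylated RNA. The submitters describe the samples as littermates, and the labels give all of them as untreated and of strain C57BL/6. Eed is needed by the Polycomb complex PRC2 to methylate histone H3 on lysine 27. The mutants carry the genotype label EedcKO, and the sources used here do not say which Cre driver or allele was used or in which cells Eed was lost. The comparison addresses what loss of Eed does to the forebrain transcriptome.

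LIM domains are zinc-binding modules that join proteins to one another. LIM-only (LMO) proteins consist of little more than such domains and do not bind DNA themselves. LIM-domain binding (LDB) proteins dimerise and hold together LMO or LIM-homeodomain proteins, together with their DNA-binding partners, so that LMO and LIM-homeodomain proteins compete for the same LDB surface. In the embryonic forebrain LIM-homeodomain factors set up the hypothalamus, the ventral telencephalon and the cortex. LMO2 with LDB1 and the factor TAL1 is best known from blood and endothelial development.

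Total counts ran from 4915493 to 5008928 in EedcKO and were 5026381 and 4820630 in wild type 1 and 2. Eed, the targeted gene, had 251, 233 and 247 counts in EedcKO 1, 2 and 3, against 404 counts in wild type 1 and only 238 counts in wild type 2. In its Eed count wild type 2 thus went against its label, and it is called the library labelled wild type 2 where a result rests on it. The Eed count covers the whole gene, and exons that the deletion spares would still be counted. Over all tested genes the mean chi-square per gene between wild type 2 and wild type 1 was 8.21 (lower is closer). It was 9.84, 9.1 and 10 between wild type 2 and EedcKO 1, 2 and 3, and 8.03 between wild type 1 and EedcKO 1. The Eed log2 fold change, EedcKO over wild type, was -0.40 with all 5 libraries (SE 0.22, edgeR adjusted p = 0.412), -0.75 without wild type 2, where it passed (adjusted p = 0.00968), and 0.04 without wild type 1 (adjusted p = 0.889). Xist and Y-linked counts marked EedcKO 2 and 3 as male and EedcKO 1 and both wild type libraries as female, so sex and genotype are partly confounded. The 9 forebrain markers, Emx1 and Pax6 among them, summed to 1590 to 1708 CPM (counts relative to the TMM-scaled library size) in EedcKO, against 1617 and 1558 CPM in wild type 1 and 2. Within that list 2 of 9 rose, Otx1 (log2 fold change 0.98, edgeR adjusted p = 0.0166) and Pax6 (0.65, 0.0286), and 0 fell. Of all tested genes 1.04% were called higher and 2.17% lower in EedcKO. Forebrain calls numbered 0 without EedcKO 2 or 3, with the replicate number as a block and with embryo sex as a covariate. The fit without EedcKO 2 called 0.606% of all tested genes, and the others called 0. Without EedcKO 1, where 1.89% of all tested genes were called, the forebrain list had 1 call up and 1 down. In the same list 4 genes lay higher and 3 lower in every EedcKO library than in either wild type library. Over all tested genes these shares were 16.4% and 17.4%. Markers of surface epithelium summed to 30.3 to 42.5 CPM in EedcKO, against 25.2 CPM in wild type 1 and 263 CPM in the library labelled wild type 2. Muscle markers likewise summed to 6.81 to 11.7 CPM in EedcKO, against 9.67 and 77.3 CPM in wild type 1 and 2.

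Promoter windows of 300 bases, from 250 bases before the start site to 50 after it, were at hand for 4 of the 6 genes (RefSeq, GRCm38.p6). Each window was the one furthest upstream where a gene had several. Those of Lmo1, Lmo3 and Ldb1 are shown because they set a window of median CpG content (7 CpGs over all windows) beside richer ones, and CpG-rich promoters are the usual setting of PRC2 in mammalian cells. No chromatin mark was measured here. All 3 lie on the minus strand, are written 5′ to 3′, and have each CpG in capitals.
Lmo1 (chr7:109175158-109175457): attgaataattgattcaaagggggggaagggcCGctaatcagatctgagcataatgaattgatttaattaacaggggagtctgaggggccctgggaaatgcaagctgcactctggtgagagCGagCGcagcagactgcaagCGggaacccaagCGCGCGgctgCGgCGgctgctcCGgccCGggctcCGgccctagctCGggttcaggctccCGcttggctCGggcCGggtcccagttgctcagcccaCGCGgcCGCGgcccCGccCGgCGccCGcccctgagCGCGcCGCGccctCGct
Lmo3 (chr6:138581919-138582218): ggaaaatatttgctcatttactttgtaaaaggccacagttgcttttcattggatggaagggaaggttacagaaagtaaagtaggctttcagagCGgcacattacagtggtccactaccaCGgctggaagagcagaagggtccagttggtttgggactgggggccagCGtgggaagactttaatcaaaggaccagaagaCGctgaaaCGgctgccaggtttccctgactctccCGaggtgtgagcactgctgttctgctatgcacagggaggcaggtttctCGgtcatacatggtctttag
Ldb1 (chr19:46045262-46045561): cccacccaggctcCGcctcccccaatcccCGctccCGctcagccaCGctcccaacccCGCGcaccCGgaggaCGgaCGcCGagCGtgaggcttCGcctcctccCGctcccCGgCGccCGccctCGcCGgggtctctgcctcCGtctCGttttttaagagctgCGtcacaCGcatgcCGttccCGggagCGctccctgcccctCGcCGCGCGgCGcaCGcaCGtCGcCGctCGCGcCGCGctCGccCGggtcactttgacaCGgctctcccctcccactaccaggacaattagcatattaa

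The Lmo1 window held 29 CpGs and 66.3% GC, the Lmo3 window 7 CpGs and 50% GC, and the Ldb1 window 41 CpGs and 71.3% GC. The Lmo4 window (chr3:144205206-144205505), not shown, was richest, with 52 CpGs and 81.3% GC. Of all 32851 windows, 87.1% had fewer CpGs than that of Lmo1, 47.9% fewer than that of Lmo3, 96.5% fewer than that of Ldb1 and 99.4% fewer than that of Lmo4. At other start sites the counts ranged up to 39 CpGs for Lmo1, down to 30 for Lmo4 and down to 5 for Ldb1, so the figure belongs to a start site and not to the gene. The homeodomain core TAATTA, which reads the same on both strands, occurred once in the Lmo1 window, with its first base 186 bases before the start site, and in none of the other 3. It was present in 5.29% of all windows. The letters GATAA, searched on both strands, were in none of the 4 windows and in 25.4% of all. The E-box CANNTG occurred once in the Lmo1 window, in 2 places in the Lmo3 window and not in those of Lmo4 and Ldb1, against 72.3% of all windows with a match.

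Across the forebrain libraries Ldb1 was the most abundant member by TPM (deposited by the submitters, a level per transcript length) and Ldb2 the least, and this held in all 5. Ldb1 averaged 324 TPM over the 5 libraries, above 98.6% of the 13875 tested genes with a TPM. Lmo1 averaged 134 TPM and Lmo4 115 TPM, and their ranges over libraries overlapped (114 to 162 and 104 to 126 TPM). Lmo3 averaged 89.5 TPM (77.1 to 107), a range that overlapped that of Lmo4. Lmo2 averaged 83.7 TPM and had the widest range, 58.7 to 155 TPM, which enclosed that of Lmo3. Ldb2 averaged 44.7 TPM (37.9 to 58.3), close to the middle of all genes, with 47.2% of them lower. In these bulk samples fewer cells of a type and less RNA per cell cannot be told apart.

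No member passed the test between EedcKO and wild type. With edgeR's quasi-likelihood test 0 of 6 had an adjusted p under 0.05, against 3.2% of the 13989 genes tested (448 genes). Of all tested genes 2.17% were called lower and 1.04% higher in EedcKO. DESeq2 and limma-voom also called 0 of 6. At an unadjusted p under 0.05 edgeR and limma-voom had 1 member (Lmo1) and DESeq2 had 2 (Lmo1 and Lmo2). Over all tested genes 2407 (17.2%) had such a p with edgeR, 2392 with limma-voom and 1880 with DESeq2. Of the 6 fitted log2 fold changes 5 were below 0, with a median of -0.20, against 48.4% of all genes below 0 and a median of 0.01. The library labelled wild type 2 had the highest CPM for 4 of the 6 (Lmo1, Lmo2, Lmo4 and Ldb2), against 23.3% of all genes. With 1 library left out, 0 of 6 were called without wild type 2, where 6.2% of all genes were called (4.12% lower), and 0 of 6 without EedcKO 1 (1.89%, 1.19% lower), EedcKO 2 (0.606%, 0.455% lower) or EedcKO 3 (0%). Without wild type 1 the exception was Lmo2, at a log2 fold change of -1.21 in a fit with 1 wild type library left. A p that misses the threshold does not show that levels were equal.

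**Figure D1:**
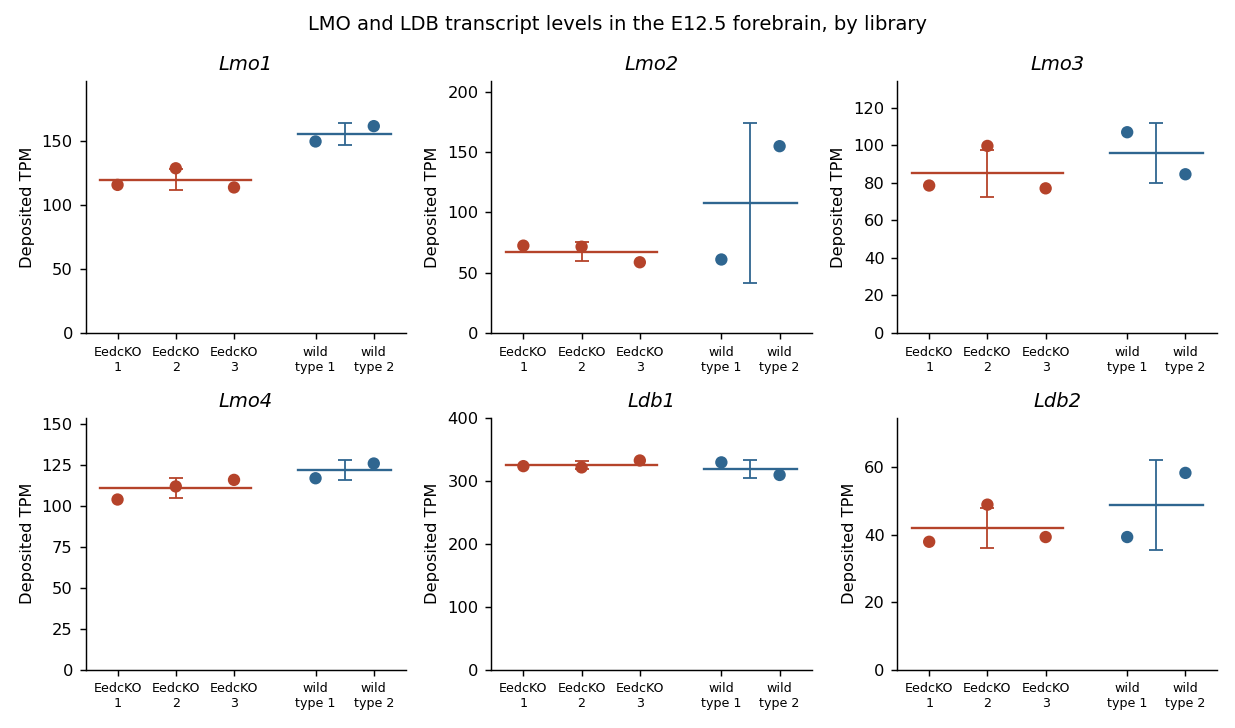
Deposited TPM (vertical axes, from 0) of the 6 genes in each library, EedcKO in red on the left and wild type in blue on the right; points are libraries, lines group means and bars 1 SD. Lmo1 lies lower in all 3 EedcKO libraries, the Ldb1 groups overlap at 310 to 333 TPM, and in Lmo2 the library labelled wild type 2 stands alone at 155 TPM.

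Among the LIM-only genes, Lmo1 came nearest to a difference. Lmo1, a neural LIM-only factor and a known oncogene of T-cell leukaemia (chromosome 7, 109138572 to 109175207, minus strand, mm10), had 116, 129 and 114 TPM in EedcKO 1, 2 and 3, against 150 and 162 TPM in wild type 1 and 2. All 3 EedcKO libraries lay below both wild type libraries, as did those of 17.4% of all tested genes. Lmo1 averaged 120 ± 8.14 TPM in EedcKO (SD, n = 3) and 156 ± 8.43 TPM in wild type (SD, n = 2). The female EedcKO 1 lay below both female wild type libraries too. The log2 fold change was -0.39 (SE 0.11, 95% interval -0.66 to -0.13, edgeR adjusted p = 0.119), or 0.761-fold. It ran from -0.46 to -0.34 over 17 alternative settings, in none of which it passed (lowest adjusted p = 0.0748, limma-trend on log2 of TPM + 1). Its unadjusted p ranked 1090 of the 13989.

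Lmo3, the closest relative of Lmo1 and a gene expressed by interneurons born in the medial ganglionic eminence (chromosome 6, 138362918 to 138581968, minus strand), had 78.6, 99.7 and 77.1 TPM in EedcKO 1, 2 and 3, against 107 and 84.6 TPM in wild type 1 and 2. The groups overlapped, since EedcKO 2 lay above wild type 2. The log2 fold change was -0.18 (SE 0.15, interval -0.54 to 0.17, edgeR adjusted p = 0.629). It was -0.01 without wild type 1 and -0.34 without wild type 2, and did not pass in either.

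Lmo4, which is active in cortical patterning (chromosome 3, 144188530 to 144205220, minus strand), had 104, 112 and 116 TPM in EedcKO 1, 2 and 3, against 117 and 126 TPM in wild type 1 and 2. The highest EedcKO library and the lowest wild type library nearly touched. The log2 fold change of -0.14 (SE 0.10, interval -0.36 to 0.08, edgeR adjusted p = 0.524) has a 95% interval of 0.778-fold to 1.06-fold. Lmo1 and Lmo4 were thus the members whose groups did not overlap, 2 of 6, where 33.8% of all genes did so in either direction.

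Lmo2 was set apart by a single library. Lmo2, the partner of TAL1 in blood and endothelial precursors (chromosome 2, 103957986 to 103981878, plus strand), had 72.5, 71.6 and 58.7 TPM in EedcKO 1, 2 and 3, against 61.0 TPM in wild type 1 and 155 TPM in the library labelled wild type 2. Its counts were 154, 155 and 129 in EedcKO, against 131 counts in wild type 1 and 341 counts in wild type 2. Exact 95% Poisson intervals were 110 to 155 for wild type 1 and 306 to 379 for wild type 2. The intervals of the wild type libraries do not meet. The CPM of the library labelled wild type 2 was 2.16 times that of the next library, and 1.48% of tested genes had the library labelled wild type 2 at least 2 times above every other. With all 5 libraries the log2 fold change was -0.68 (SE 0.35, interval -1.52 to 0.15, edgeR adjusted p = 0.389). Without wild type 1 it was -1.21 and passed (edgeR adjusted p = 0.00531), in a fit that called 7.02% of genes (4.02% lower) and in which the lone wild type library is assumed to vary like EedcKO. Without the library labelled wild type 2 it was 0.14 (adjusted p = 0.762), so the direction turns with that library.

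Other genes and lists stood high in the same library. Tal1, the basic helix-loop-helix partner of LMO2, had 16.9, 10.7 and 9.61 CPM in EedcKO 1, 2 and 3, against 9.89 CPM in wild type 1 and 38.1 CPM in the library labelled wild type 2. Lyl1, its relative, had 61.7, 63.4 and 64.4 TPM in EedcKO, against 28.3 and 74.9 TPM in wild type 1 and 2, and so was lowest in wild type 1. The 13 erythroid markers summed to 442, 302 and 258 CPM in EedcKO 1, 2 and 3, against 264 and 661 CPM in wild type 1 and 2. The 10 choroid plexus and hem markers summed to 52.6 to 253 CPM in EedcKO, against 188 and 637 CPM in wild type 1 and 2. By contrast the 14 endothelial markers summed to 353 to 488 CPM in EedcKO, against 439 CPM in wild type 1 and 338 CPM in the library labelled wild type 2, where they were lowest. The 10 markers of microglia and macrophages summed to 77.9 to 99.8 CPM in EedcKO, against 85 and 112 CPM. Every gene of these 4 lists had counts in at least 1 library. The 9 surface epithelial and 9 muscle markers also had their highest sums in the library labelled wild type 2 (263 and 77.3 CPM). The part of all these lists in the Lmo2 value was not tested.

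**Figure D2:**
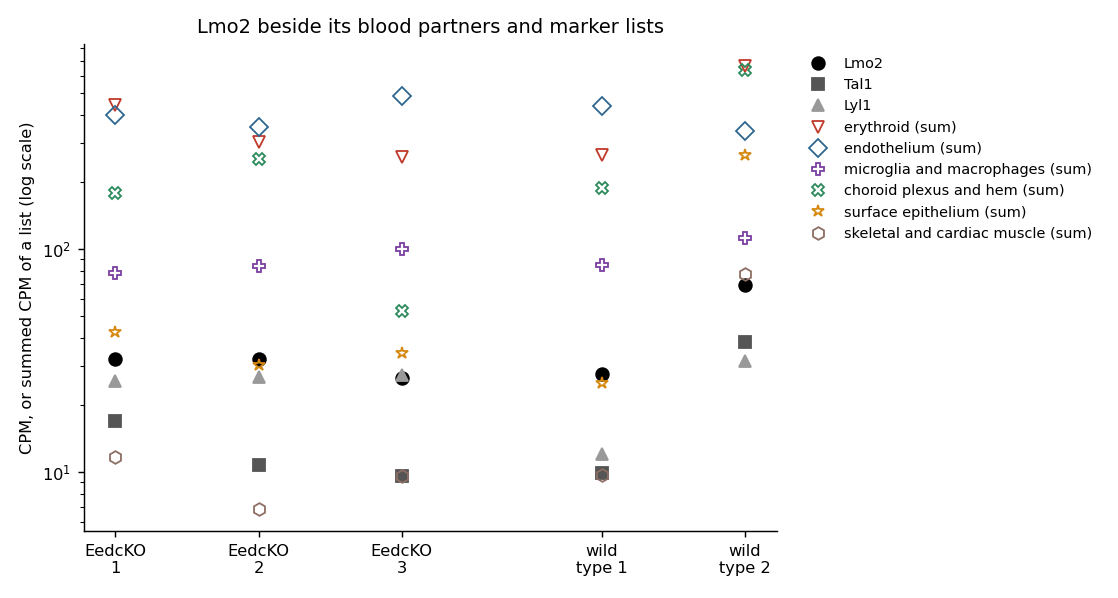
CPM of Lmo2, Tal1 and Lyl1 (filled) and summed CPM of 6 marker lists (open) on a log axis, by library, EedcKO on the left and wild type on the right. Lmo2 lies between 26.4 and 32.1 CPM in EedcKO and at 27.6 CPM in wild type 1, and at 69.2 CPM in the library labelled wild type 2, where the endothelial sum is lowest at 338 CPM.

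The 3 tested genes nearest to Lmo2 in pattern, by root mean square distance of mean-centred log2 CPM over the 5 libraries, were Ccdc162 (0.077), the phospholipid-remodelling acyltransferase Lpcat2 (0.081) and the calcium-binding S100a11 (0.108). Ccdc162 had 10, 9 and 8 counts in EedcKO and 8 and 21 in wild type 1 and 2, Lpcat2 had 17, 20 and 15 and then 14 and 43, and S100a11 had 28, 27 and 22 and then 28 and 65. All 3 were picked for a like pattern, so the high value in the library labelled wild type 2 that they share with Lmo2 follows from the choice. Their counts were far lower than those of Lmo2. Lmo2 was the member whose log2 CPM spanned at least 1 over the libraries (1.38), so no such neighbours are named for the others.

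Of the LIM-domain binding genes, Ldb1 varied least. Ldb1, the widely expressed scaffold (chromosome 19, 46031570 to 46045214, minus strand), had 324, 322 and 333 TPM in EedcKO 1, 2 and 3, against 330 and 310 TPM in wild type 1 and 2. The groups overlapped, at 326 ± 5.94 TPM in EedcKO (SD, n = 3) and 320 ± 14.2 TPM in wild type (SD, n = 2), and the highest CPM was 1.08 times the lowest. Of 694 tested genes within 0.5 log2 CPM of its level, 5.62% had a smaller span over the 5 libraries. The log2 fold change was 0.02 (SE 0.09, edgeR adjusted p = 0.952), and its 95% interval corresponds to 0.873-fold to 1.18-fold. With 1454 to 1558 counts per library it was the most deeply counted member, and its sign turned in 4 of 17 alternatives, over which the value ran from -0.03 to 0.06.

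Ldb2, the second scaffold, which deep-layer cortical projection neurons also express (chromosome 5, 44472132 to 44799680, minus strand), had 37.9, 48.9 and 39.3 TPM in EedcKO 1, 2 and 3, against 39.3 and 58.3 TPM in wild type 1 and 2. Wild type 1 lay among the EedcKO libraries, and the library labelled wild type 2 was highest. The log2 fold change was -0.23 (SE 0.20, interval -0.69 to 0.24, edgeR adjusted p = 0.651). It was -0.49 without wild type 1 and 0.09 without the library labelled wild type 2, and passed in neither (adjusted p = 0.144 and 0.87).

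**Figure D3:**
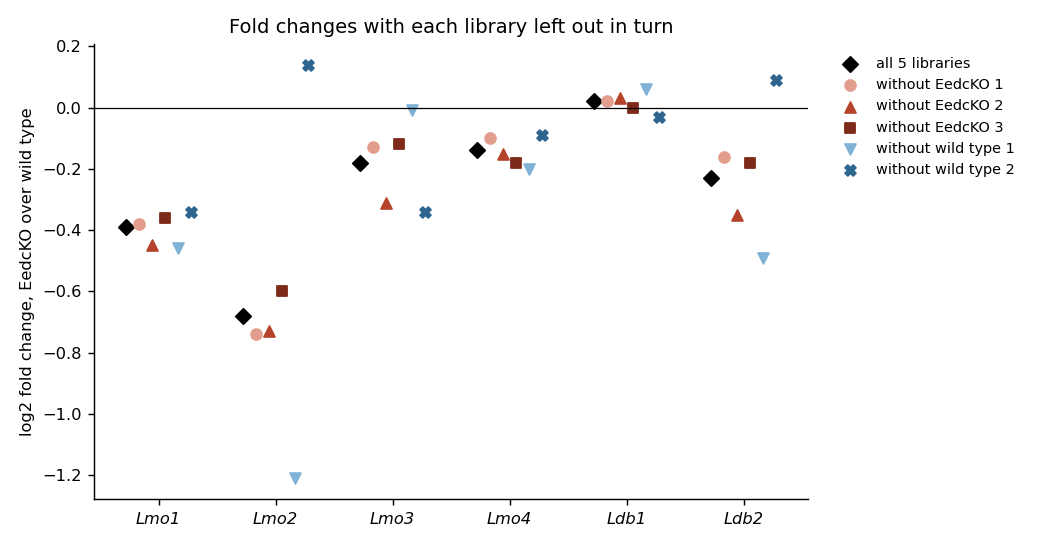
log2 fold change, EedcKO over wild type (vertical axis), of the 6 genes with all 5 libraries (diamond) and with each library left out in turn. Lmo1 stays between -0.46 and -0.34, while Lmo2 runs from -1.21 to 0.14 and Ldb2 from -0.49 to 0.09, both by the choice of wild type library.

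The balance of the family followed from these levels. The 4 LIM-only genes summed to 372, 412 and 366 TPM in EedcKO 1, 2 and 3, against 436 and 527 TPM in wild type 1 and 2. The pair Ldb1 and Ldb2 summed to 362, 371 and 372 TPM in EedcKO, against 370 and 368 TPM in wild type. Summed LIM-only over summed LDB transcripts was 1.03, 1.11 and 0.982 in EedcKO 1, 2 and 3, against 1.18 and 1.43 in wild type 1 and 2, and the highest of these values includes the high Lmo2 of the library labelled wild type 2. Ldb1 made up 86.8% to 89.5% of LDB transcripts in EedcKO, against 89.4% and 84.2% in wild type. Lmo1 made up 31.1% to 31.3% of LIM-only transcripts in EedcKO, against 34.5% and 30.7% in wild type 1 and 2. Lmo2 made up 16% to 19.5% in EedcKO, against 14% and 29.3%.

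LIM-homeodomain genes, which share the LDB proteins with the LIM-only genes, differed more. The 12 genes summed to 603, 521 and 528 TPM in EedcKO 1, 2 and 3, against 935 and 948 TPM in wild type 1 and 2. Per LDB transcript this was at least 1.4 and at most 1.67 in EedcKO, against 2.53 and 2.57 in wild type. Over all tested genes 2.17% fell and 1.04% rose, with a median log2 fold change of 0.01. Of 9 LIM-homeodomain genes tested, 3 fell and 0 rose, with a median of -1.56. The 3 were Lhx8, a factor of ventral cholinergic neurons (-4.77, SE 0.74, edgeR adjusted p = 0.0384), and Lhx5 (-1.82, SE 0.20, 0.00937) and Lhx1 (-1.68, SE 0.21, 0.0112), factors of Cajal-Retzius cells and the diencephalon. Lhx8 had 14.1, 0.395 and 1.56 TPM in EedcKO, against 162 and 127 TPM in wild type. The Lhx8 call was lost without EedcKO 2 or 3, without either wild type library, with library size alone, without a count filter and with limma-trend, and its log2 fold change was -7.15 without EedcKO 1. With embryo sex as a covariate all 3 calls were lost, at -3.38 for Lhx8 (edgeR adjusted p = 0.135), -1.64 for Lhx5 (0.201) and -1.58 for Lhx1 (0.217). EedcKO 2 and 3 are the only male libraries, so that fit compares EedcKO 1 alone with wild type. Of all tested genes 0 passed in it. Without EedcKO 3 Lhx5 was -1.82 (0.0936) and Lhx1 -1.51 (0.0782). Lhx6, of migrating interneurons, had 71.7, 35.8 and 21.9 TPM in EedcKO, against 186 and 178 TPM in wild type (-2.09, edgeR adjusted p = 0.0695). Lhx2, a cortical selector, had 311, 312 and 370 TPM in EedcKO, against 212 and 292 TPM in wild type (0.39, adjusted p = 0.254). The list had 4 calls down without EedcKO 1, 2 down without EedcKO 2 and 0 without EedcKO 3. In these fits 1.19%, 0.455% and 0% of all tested genes were called lower.

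**Figure D4:**
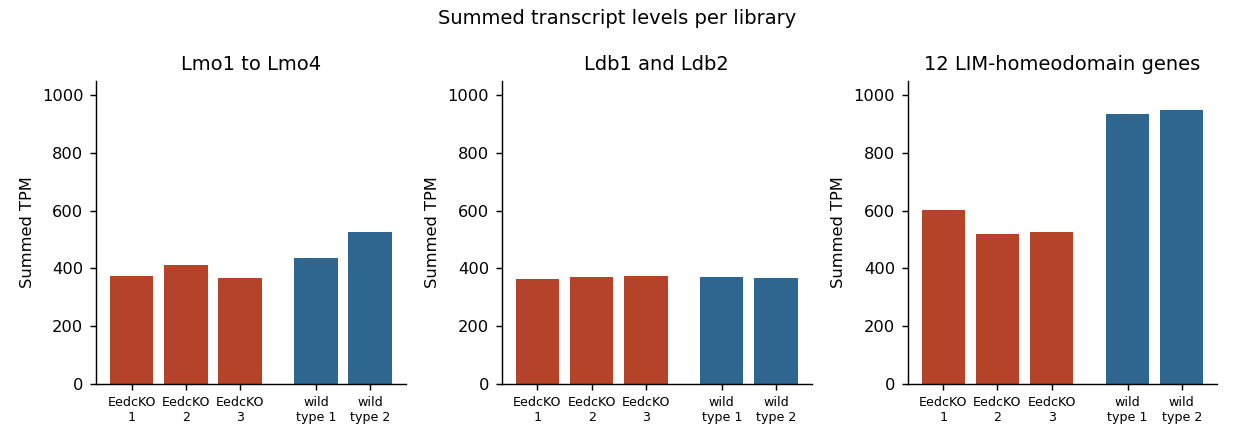
Summed TPM (vertical axes, from 0, same scale) of Lmo1 to Lmo4, of Ldb1 and Ldb2, and of 12 LIM-homeodomain genes in each library, EedcKO in red and wild type in blue. LDB sums are 362 to 372 TPM in EedcKO and 370 and 368 TPM in wild type, while LIM-homeodomain sums are 521 to 603 TPM in EedcKO and 935 and 948 TPM in wild type.

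Of 19 other listed partners of LMO and LDB proteins 17 were tested, 1 rose and 2 fell, with a median of 0.08. Over all tested genes 1.04% rose and 2.17% fell, with a median of 0.01. The SSBP proteins bind LDB1 and protect it from degradation. Of these, Ssbp2 fell to 64.0, 61.6 and 63.0 TPM in EedcKO, against 85.4 and 83.8 TPM in wild type (-0.44, SE 0.08, edgeR adjusted p = 0.0324). Ssbp3 (-0.11, adjusted p = 0.654) and Ssbp4 (-0.20, 0.445) did not pass, and neither did Rlim, the ubiquitin ligase of LDB proteins (0.15, 0.659). Among basic helix-loop-helix factors Neurog2, a cortical proneural factor, rose to 396, 484 and 457 TPM in EedcKO, against 238 and 273 TPM in wild type (0.79, SE 0.12, edgeR adjusted p = 0.0202). The LMO4-binding proteins Deaf1 (-0.28, 0.136), Rbbp8 (0.27, 0.265) and Brca1 (0.57, 0.0588) did not pass. With embryo sex as a covariate Ssbp2 was -0.43 (edgeR adjusted p = 0.289) and Neurog2 0.61 (0.217), and neither passed. Of all tested genes 0 passed in that fit. The Ssbp2 call was also lost with limma-trend and with the replicate block (-0.44, edgeR adjusted p = 0.134). Without EedcKO 1, 2 or 3 Ssbp2 was -0.45, -0.42 and -0.44, and did not pass (edgeR adjusted p = 0.0781, 0.167 and 0.147). Calls in this list numbered 1 without EedcKO 1, and 0 without EedcKO 2 or without EedcKO 3. In these fits 1.89%, 0.606% and 0% of all tested genes were called.

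**Figure D5:**
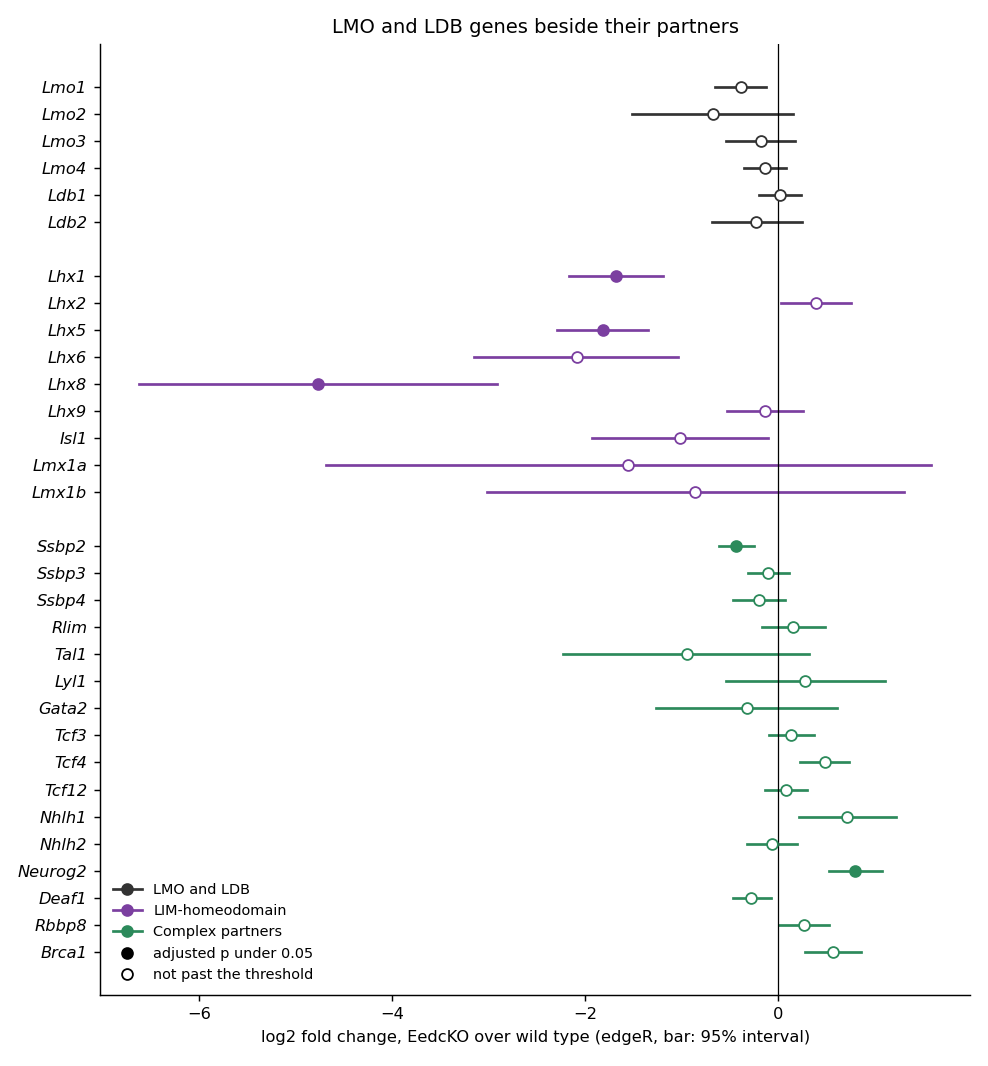
log2 fold change, EedcKO over wild type, with 95% intervals (horizontal axis) for the 6 genes, the tested LIM-homeodomain genes and 16 tested partner genes; filled points have an edgeR adjusted p under 0.05. All 6 LMO and LDB points are open, and Lhx8 (-4.77), Lhx5 and Lhx1 lie furthest to the left among the filled ones.

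Cell type markers moved between the groups as well. Over all tested genes 2.17% were called lower in EedcKO and 1.04% higher, with a median log2 fold change of 0.01. In the list of the ventral telencephalon 5 of 18 tested genes fell and 0 rose (median -0.95). Besides Lhx8 these included the GABA transporter gene Slc32a1 (-1.07) and the interneuron factors Sp9 (-0.97) and Dlx5 (-0.92). In the list of the diencephalon and hypothalamus 3 of 8 tested genes fell and 0 rose (median -1.98). They were Otp, Fezf1 and Barhl2 (-0.79). Otp had 0, 1 and 1 counts in EedcKO, against 428 and 85 counts in wild type 1 and 2, so the wild type libraries themselves lay far apart. Fezf1 had 36.8, 21.2 and 17.6 TPM in EedcKO, against 139 and 187 TPM in wild type. In the list for excitatory cells of the cortex 10 of 14 tested genes rose and 0 fell (median 0.76), led by the glutamate transporter gene Slc17a7 (2.07) and the factors Neurod2 (1.28) and Neurod6 (1.22). The ventral list summed to 1657, 1171 and 1174 CPM in EedcKO 1, 2 and 3, against 2716 and 2030 CPM in wild type 1 and 2. The cortical list summed to 2675, 3301 and 3137 CPM in EedcKO, against 1780 and 1819 CPM in wild type. Without EedcKO 3 none of these lists had a call, and without EedcKO 2 they had 0, 2 and 2 (ventral, diencephalic, cortical). Of all tested genes 0 were called without EedcKO 3 and 0.606% without EedcKO 2. With the replicate block or with embryo sex as a covariate these 3 lists had 0 calls, as had all tested genes. The endothelial, erythroid, microglial, epithelial, muscle and choroid lists had 0 calls with the main edgeR fit and limma-voom. DESeq2, edgeR with library size alone and edgeR without a count filter each called 1 epithelial gene. With either wild type library left out, which leaves 1, the choroid list was not free of calls. Nor were the epithelial and muscle lists without wild type 1. At an unadjusted p under 0.05 in the main edgeR fit the endothelial to choroid lists had, in the order first named, 0, 0, 0, 3, 1 and 2 genes. The lowest p in each list belonged to Flt1 (0.28), Hbb-bt (-0.61), C1qc (-0.55), Krt8 (-2.93), Tnnt1 (-2.08) and Otx2 (-1.47), given here as log2 fold changes. The part of these cell types in the Lmo1 and Lmo3 values was not tested.

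The bodies of genes on the opposite strand, introns included, overlap exons of some members in the mm10 annotation. The sources used here do not say whether the counting used strand, so reads of any shared exon stretch cannot be told apart. The body of Pprc1 (2704 counts over 5 libraries) spans 329 of the 4606 exonic bases of Ldb1. That of A830011K09Rik (94 counts) spans 679 of the 5135 exonic bases of Lmo3. The body of 4931422A03Rik (49 counts) spans 2068 of the 2166 exonic bases of Lmo2, which had 910 counts in all.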

How the data were processed

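Forebrain RNA of 3 EedcKO and 2 wild type E12.5 mouse samples was grouped by genotype label. The submitters' processing notes name HISAT2 2.2.0 and the build mm10; the sources used here give no counter, strand setting or annotation. Raw counts per gene (56196 rows) and TPM (24926 rows) were deposited by the authors. The samples are described as littermates, but no label ties a library to an embryo or litter, so the p-values cover only the spread among these samples. No library pair agreed within sampling noise (chi-square per gene 2.61 to 10.8).

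The 28277 rows without a symbol (2.01% to 2.16% of counts) were left out. Counts were fitted in R 4.3.3 with edgeR 4.0.16 (filterByExpr, TMM, robust glmQLFit, glmQLFTest, Benjamini-Hochberg over 13989 genes, threshold 0.05) and checked on simulated data. SE is the log2 fold change over the square root of F. Alternatives used DESeq2 1.42.0 and limma 3.58.1. A count of 3, the limit that a count of 0 allows, is 0.609 to 0.631 CPM; Poisson intervals (95%) cover counting error only. The most counted gene held 0.104% to 0.13% of the counts, and the 100 most counted genes 5.05% to 5.81%.

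Members and lists were chosen with earlier results of these data known. Named genes were the members, Eed, up to 4 called genes of each list with the largest change (or, with none called, those of lowest p), and the 3 nearest genes in pattern to a member spanning at least 1 log2 CPM. Other partner genes (Lhx2, Lhx6, Tal1, Lyl1, Ssbp3, Ssbp4, Rlim, Deaf1, Rbbp8, Brca1) and overlapping genes were named after their values were seen. Alternatives were other size factors, filters, tools, TPM with a pseudocount of 1 or 0.1, a replicate block, sex as a covariate and leaving out each library. Some genes are in 2 lists (Lhx6, Lhx8 and Isl1 are also ventral, Lhx2 forebrain, Lmx1a choroid, Gata1 erythroid). Coordinates are from GENCODE M21 (mm10), 1-based, by symbol; promoters are from RefSeq. Some list genes are counted but not reported by name here.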

Additional observations from a re-analysis of the deposited data

How the results depend on the processing

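No LMO or LDB gene passed in any of the 17 alternatives except Lmo2 without wild type 1, so the number called ran from 0 to 1 with a library left out. Leaving out 1 library turned signs, and the range of log2 fold changes was -1.21 to 0.14 for Lmo2, -0.49 to 0.09 for Ldb2 and -0.03 to 0.06 for Ldb1. It was -0.75 to 0.04 for Eed, -0.41 to 0.18 for Lhx9, -2.44 to 1.01 for Lmx1a, -1.77 to 2.03 for Lmx1b, -0.0099 to 0.33 for Rlim, -1.64 to 0.33 for Tal1, -0.26 to 1.15 for Lyl1, -0.64 to 0.06 for Gata2 and -0.13 to 0.009 for Nhlh2. The value without EedcKO 3 was -0.0023 for Ldb1. With the replicate block it was -0.0014 for Ldb1 and 0.0091 for Nhlh2, and with sex as a covariate -0.006 for Ldb1.

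Of all tested genes 677 passed with DESeq2, 174 with limma-trend on log2 of TPM + 1 without a filter, and 0 to 1012 with a library left out. With the replicate number as a block 0 genes passed, and with embryo sex as a covariate 0 (2169 and 1611 at an unadjusted edgeR p under 0.05). Without EedcKO 3, 0 passed (1886 unadjusted). LIM-homeodomain calls were 0 with the replicate block (log2 fold changes -4.46 for Lhx8, -1.81 for Lhx5 and -1.50 for Lhx1, edgeR adjusted p = 0.082, 0.053 and 0.0617), 0 with sex as a covariate and 0 to 4 with a library left out. Partner calls were 5 with library size alone, 6 with DESeq2, 5 without a count filter, 1 with limma-trend without a filter, 0 with the replicate block, 0 with sex as a covariate, and 0 to 6 with a library left out. Same-numbered samples deviated with correlations of -0.0412 and 0.13, and no label ties the numbers to a litter or batch, so the numbers were not taken as pairs. No cause was tested. Depth limits Ldb2 most, with 124 to 198 counts per library.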

Other observations

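LIM-domain genes outside the LMO family are proteins of the cytoskeleton and of planar polarity for the most part. Of 16 listed 14 were tested, 1 fell and 0 rose, with a median log2 fold change of -0.05. Over all tested genes 2.17% fell and 1.04% rose, with a median of 0.01. Prickle2, a planar polarity gene, had 11.5, 11.6 and 10.3 TPM in EedcKO 1, 2 and 3, against 18.3 and 18.4 TPM in wild type 1 and 2 (-0.74, SE 0.13, edgeR adjusted p = 0.0329). Its call was lost without EedcKO 1, without EedcKO 2 and without EedcKO 3. Lmo7, which shares the symbol stem but is no member of the family, had 87, 109 and 83 counts in EedcKO, against 16 and 53 counts in wild type 1 and 2 (1.43, SE 0.42, edgeR adjusted p = 0.126) and was singled out after its values were seen.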
